A study of Homo sapiens with 34 samples.

Results

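Cells of the posterior primitive streak (PPS) that had spent a second day in lateral mesoderm (LM) medium were compared with PPS cells at the end of day 1. The comparison used 4 of the 34 libraries of the series, 2 labelled PPS after LM at 48 h (PPS-LM) and 2 labelled PPS at 24 h (PPS-24h), chosen by condition and not by any measured value. All cells were wild-type ESI017, an established human embryonic stem cell line, and the labels call the 2 libraries of a condition biological replicates. Day 1 of the PPS protocol used the GSK3 inhibitor CHIR99021 at 6 µM, which activates canonical Wnt signalling, together with BMP4 (40 ng/ml) and without activin, and kept bFGF in the medium at 20 ng/ml. On day 2 the cells in LM medium received IWP2 at 4 µM, which blocks Wnt secretion, A8301 at 1 µM, which blocks the type I receptors of activin, Nodal and TGFβ, and BMP4 at 30 ng/ml. PPS-LM therefore differed from PPS-24h in culture time as well as in medium, and the effects of time and medium cannot be told apart from this comparison alone. For this reason the 48 h PPS libraries in paraxial mesoderm medium (PPS-PM: 1 µM A8301, 20 ng/ml bFGF and 250 nM of the BMP receptor inhibitor LDN) and in endoderm medium (PPS-DE(b): 100 ng/ml activin and 250 nM LDN) were compared with PPS-LM directly. A figure legend of the study also lists the Wnt agonist CHIR99021 in PM medium. The LM change was also set against that of mid primitive streak (MPS) cells, which had received 30 ng/ml activin on day 1 in addition to the PPS factors. Levels in undifferentiated control cells, labelled 48 h, are given without a test. The labels define LM medium for the MPS protocol, and its use on PPS cells follows the study's methods. Each condition is a bulk culture of 1 line, so that a change in the number of cells of a type and a change in RNA per cell cannot be told apart.

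In the embryo, the primitive streak is where epiblast cells leave the epithelium to form mesoderm and endoderm. Wnt and Nodal signalling maintain streak genes such as TBXT and EOMES, and BMP signalling at the posterior end directs cells towards lateral plate and extra-embryonic mesoderm. Lateral plate mesoderm gives rise to the heart, body wall and limb connective tissue and is marked by HAND and GATA factors. BMP also directs cells of the early embryo towards amnion, an epithelium that shares GATA3, TFAP2A and ISL1 with other tissues.

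Because LM medium kept BMP4 and removed the Wnt agonist, promoters of genes with a large fall in the Wnt target list and of genes with a large rise in the BMP target list are shown first. Each is the 300-base RefSeq promoter (GRCh38.p14, from 250 bases before to 50 after the gene start), printed 5′ to 3′ on the strand of the gene. Capitals mark the TCF/LEF motif CTTTGAT in SP5 and the SMAD motif GGCGCC in KCTD12, each found once by a search of both strands. The SP8 and SMAD9 promoters are printed without capitals, although SP8 of the Wnt list also holds 1 match of GGCGCC. Matches of the short SMAD motif AGAC are not marked, and SMAD9 and SP5 hold 2 each.
SP5, chr2:170715087-170715386 (+): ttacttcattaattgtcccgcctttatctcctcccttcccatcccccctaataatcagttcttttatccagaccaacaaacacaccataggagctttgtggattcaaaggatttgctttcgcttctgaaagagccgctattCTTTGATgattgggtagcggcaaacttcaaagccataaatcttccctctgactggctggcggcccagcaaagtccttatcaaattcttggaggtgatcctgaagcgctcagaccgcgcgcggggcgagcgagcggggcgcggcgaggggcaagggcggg
SP8, chr7:20786837-20787136 (-): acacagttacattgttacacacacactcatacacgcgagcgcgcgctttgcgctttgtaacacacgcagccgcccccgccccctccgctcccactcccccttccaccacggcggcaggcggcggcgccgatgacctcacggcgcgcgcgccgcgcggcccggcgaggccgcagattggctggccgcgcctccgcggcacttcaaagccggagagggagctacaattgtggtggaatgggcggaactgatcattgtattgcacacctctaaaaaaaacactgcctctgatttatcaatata
KCTD12, chr13:76886356-76886655 (-): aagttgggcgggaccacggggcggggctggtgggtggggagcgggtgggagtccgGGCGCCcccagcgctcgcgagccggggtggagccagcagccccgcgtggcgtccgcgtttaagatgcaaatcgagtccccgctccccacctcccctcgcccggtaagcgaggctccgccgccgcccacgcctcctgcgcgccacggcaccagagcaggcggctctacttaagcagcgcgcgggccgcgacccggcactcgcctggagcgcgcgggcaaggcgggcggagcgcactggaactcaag
SMAD9, chr13:36920189-36920488 (-): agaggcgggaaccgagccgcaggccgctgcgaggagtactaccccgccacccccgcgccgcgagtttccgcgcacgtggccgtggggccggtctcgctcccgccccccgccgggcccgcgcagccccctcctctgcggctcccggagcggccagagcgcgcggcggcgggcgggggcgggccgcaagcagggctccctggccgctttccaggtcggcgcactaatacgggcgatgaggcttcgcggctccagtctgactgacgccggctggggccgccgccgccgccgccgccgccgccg
The first pair belongs to the Wnt list and fell, and the second pair belongs to the BMP list and rose. LGR5 and TBX2 were also among the largest changes of these lists and are named only. CTTTGAT was present in 1 of the 13 Wnt target promoters matched and in 2.62% of all 35116 promoters of this length. GGCGCC was present in 2 of the 14 BMP target promoters matched, in 3 of the 13 Wnt target promoters and in 19.2% of all. The SMAD motif GTCTAGAC, which contains AGAC, was found in 1 of the 14 and in 0.202% of all, and the short SMAD motif AGAC in 11 of the 14 and in 84.0% of all. A match is a match of letters only, and its absence from this window says nothing of the factor.

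The 4 libraries held between 16611339 and 20249866 estimated counts, within the range of all 34 (15522780 to 23439799, median 19341118). Mitochondrial transcripts took 7.13% and 9.03% of counts in the PPS-24h libraries and 5.08% and 8.20% in the PPS-LM libraries. The groups overlapped, and the share was lower in PPS-LM for each replicate number. The share of ribosomal protein genes overlapped as well, at 3.82% and 2.51% in PPS-24h and 4.26% and 3.30% in PPS-LM. No pair of replicates in the series agreed within sampling noise. Levels below are counts scaled to library size (CPM), not corrected for gene length, and are compared only between libraries for the same gene. At these depths 3 counts, the limit below which a level is not distinguished from 0, came to 0.148 to 0.181 CPM.

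In the second day under LM medium, 4467 of the 17895 genes tested (25.0%) changed, by edgeR's quasi-likelihood test at an adjusted p of 0.05. Of these, 2165 rose (12.1% of the genes tested) and 2302 fell (12.9%), and the median log2 fold change over all genes was -0.004. A change of at least 2-fold (log2 of 1) was seen for 1287 rising and 1503 falling genes, and a log2 change of at least 4 for 216 and 303. With PPS-LM replicate 1 left out 2761 genes were called, the only library of the 4 whose removal lowered the count more than 1.5-fold, and without any other it lay between 3102 and 3937. The plot of gene lists gives the calls in each group of genes described below. These shares of 12.1% and 12.9% are the background against which the counts in a list can be read.

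**Figure D1:**
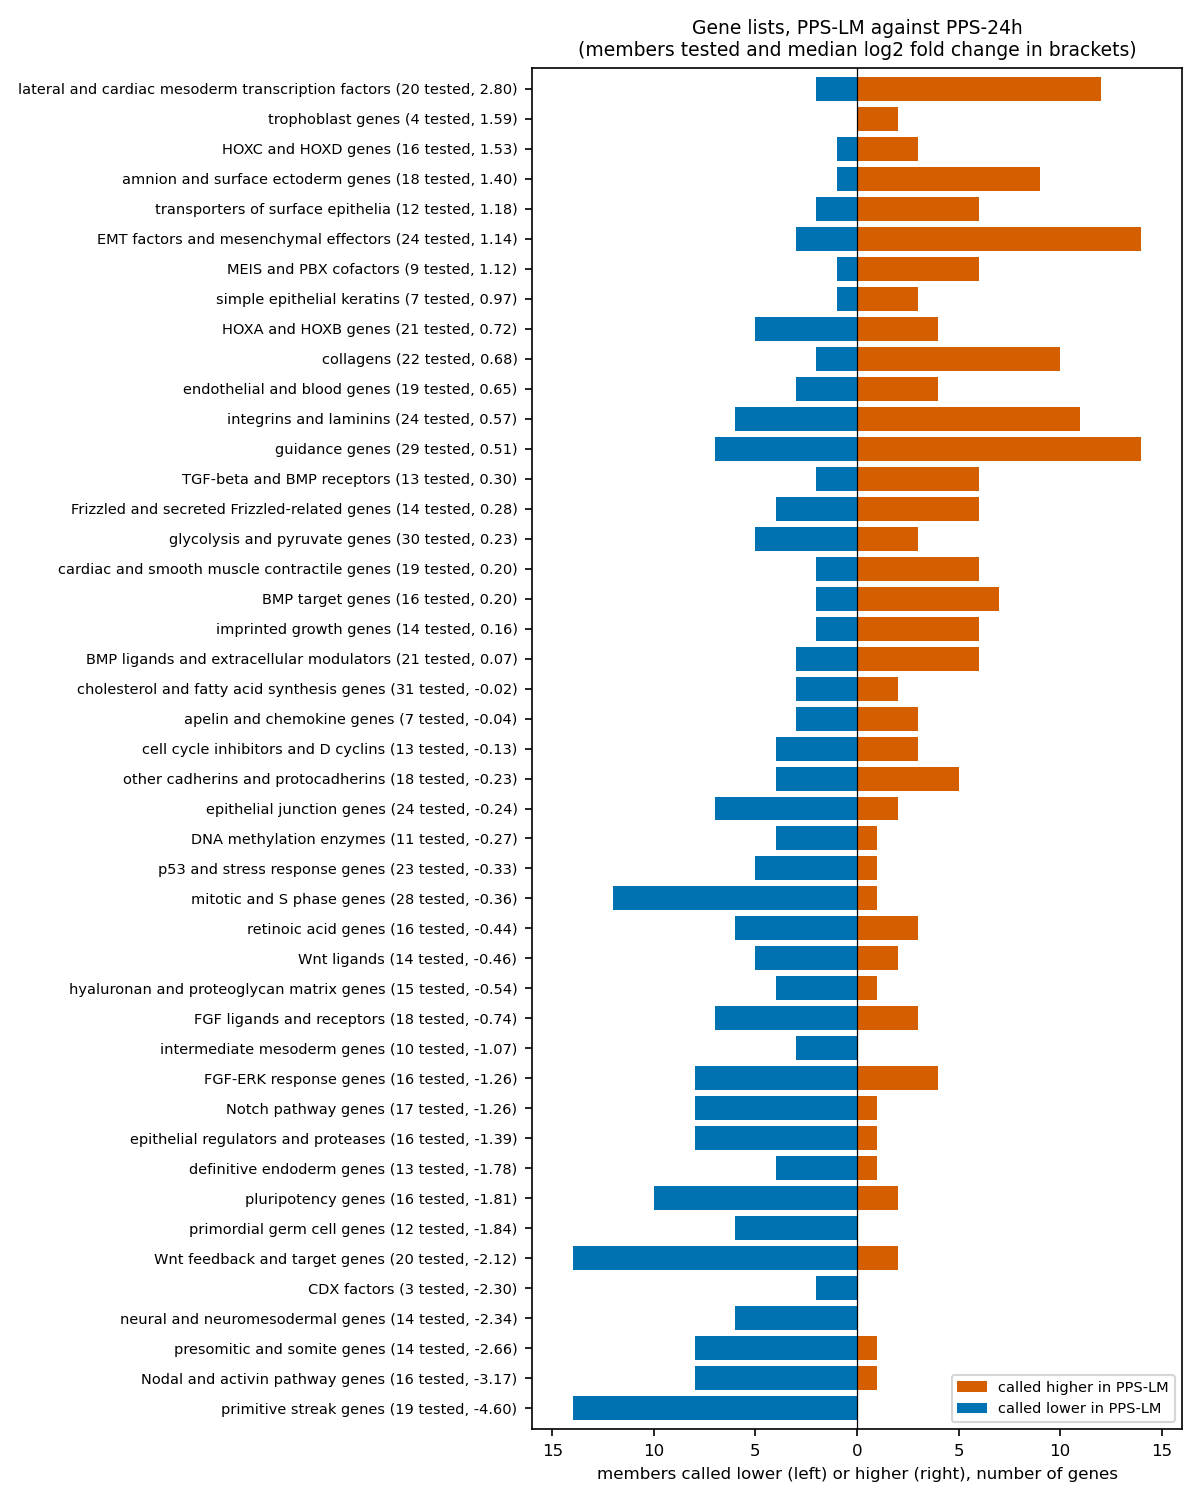
Number of members of each gene list called lower (bars to the left) or higher (bars to the right) in PPS-LM than in PPS-24h, 2 libraries a condition, with the number tested and the median log2 fold change in brackets. Primitive streak genes, with 14 of 19 lower and none higher, stand at the bottom and the lateral mesoderm factors, with 12 of 20 higher, at the top.

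Among the largest changes were genes that went from no counts to a clear level, or the reverse. There were 25 such gene identifiers that stood at 3 counts or fewer in each library of one condition and at a mean of at least 10 CPM in the other, 12 of them higher and 13 lower in PPS-LM. DLL1 and SOX7 are counted through 1 of their 2 identifiers. Summed, DLL1 had 0.791 and 0.929 CPM in PPS-LM and SOX7 had 0.564 and 0 CPM in PPS-24h, so neither meets this limit. SLC39A2, a zinc transporter, had no count in either PPS-24h library and 112 and 68.2 CPM in the PPS-LM libraries, at least 547-fold higher against a floor of 3 counts per library. LUM, a matrix proteoglycan of connective tissue, went from no count to 32.2 and 22.7 CPM, at least 167-fold higher. HTR1E, a serotonin receptor, was at least 141-fold higher and ODAM, a secreted protein of epithelia, at least 150-fold higher, also from no count. Both regulators of G protein signalling RGS1 and RGS13 were at least 112-fold and 86.3-fold higher, but DESeq2 did not call either (adjusted p = 0.397 and 0.418). P2RY6, a nucleotide receptor, rose from 0.0988 and 0 to 84.4 and 95.4 CPM, a ratio of 1660 (95% counting interval 458 to 13700). FIBIN rose from 0.0494 and 0 to 86.6 and 28.9 CPM, a ratio of 2150 (386 to 85000), with its PPS-LM libraries 3-fold apart. ADGRA2, an adhesion receptor that takes part in Wnt reception, rose from 0.543 and 0.0672 to 331 and 314 CPM (log2 fold change 9.99, SE 0.81, adjusted p = 9.19e-09). PKDCC, a secreted kinase, rose from 0.0988 and 0.241 to 96.6 and 81.7 CPM (9.08, SE 1.12, adjusted p = 2.32e-06). Both PPS-LM libraries lay above both PPS-24h libraries in each of these genes, which was a condition of their choice.

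Genes that were lost included TNS4, a focal adhesion protein, which went from 27.4 and 32.2 CPM to no count, at least 185-fold lower. CYP24A1, the enzyme that breaks down vitamin D, was at least 104-fold lower and TNFRSF9, a TNF receptor, at least 67.3-fold lower, both to no count. PPP1R14C, a phosphatase inhibitor, fell from 34.1 and 24.4 to 0.158 and 0 CPM, a ratio of 369 (95% counting interval 126 to 1790). TTC29 fell from 93.6 and 87.1 to 0.525 and 0 CPM (log2 fold change -8.33, SE 0.81, adjusted p = 9.42e-08). GBX2, a homeobox factor, fell from 17.8 and 26.5 to 0.158 and 0 CPM, a ratio of 270 (92.1 to 1310). EDAR, the ectodysplasin receptor, fell from 11.5 and 22.6 to 0.0525 and 0 CPM, and CD226, an adhesion receptor, from 18.9 and 12.4 to 0 and 0.164 CPM. SERPINB2 went from 21.3 and 6.69 CPM to no count, and DESeq2 did not call it (adjusted p = 0.182). Counting intervals cover counting error only.

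Primitive streak genes fell as a group, with 14 of the 19 tested lower and none higher, and a median log2 fold change of -4.60 (-3.52 with the genes at no count placed at their bound). TBXT (brachyury, chr6:166157656-166168700 in GRCh38), the T-box factor of the streak, stood at 1041 and 1125 CPM at 24 h. It stood at 0.525 and 1.20 CPM in PPS-LM (log2 fold change -10.24, SE 0.62, adjusted p = 2.09e-10), a low level but above the 0.0452 and 0.106 CPM of the control. MIXL1, a homeobox factor of the streak, fell from 521 and 763 to 1.31 and 2.02 CPM (-8.54, SE 0.58, adjusted p = 9.54e-10). EOMES, a T-box factor of streak and endoderm, fell from 12.2 and 31.0 to 0.0525 and 0.0547 CPM, a ratio of 386 (95% counting interval 107 to 3200). EVX1, a posterior streak homeobox factor singled out after its values were seen, fell less, from 311 and 459 to 126 and 122 CPM (-1.59, SE 0.57, adjusted p = 0.0469). MESP1, a factor of nascent and cardiac mesoderm, fell from 99.7 and 69.8 to 0.525 and 1.32 CPM (-6.47, SE 0.83, adjusted p = 4.08e-06). In every streak gene named here the PPS-LM libraries lay below the PPS-24h libraries. For TBXT, MIXL1 and EOMES, which were among the largest falls, this was a condition of that choice.

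Presomitic and somite genes, which mark the paraxial mesoderm, followed the same direction, with 8 of the 14 tested lower and 1 higher (median -2.66). MSGN1 (mesogenin 1, chr2:17816460-17817798), a presomitic factor, fell from 92.1 and 64.1 CPM to 0.0525 and 0 CPM, a ratio of 2970 (95% counting interval 532 to 117000). TBX6, a T-box factor of paraxial mesoderm, fell from 40.8 and 26.5 to 2.95 and 2.90 CPM (log2 fold change -3.48, SE 0.28, adjusted p = 9.19e-09). The Notch ligand DLL1 is listed under 2 identifiers, and their sum fell from 88.5 and 71.9 to 0.791 and 0.929 CPM (-6.49, SE 0.50, adjusted p = 2.09e-09, a sum made after the data were seen). HES7, an oscillating repressor of the segmentation clock, fell from 17.5 and 15.02 to 0.630 and 0.164 CPM (-5.28, SE 0.48, adjusted p = 4.48e-08). PAX3, a somite and neural crest factor, fell from 53.8 and 68.5 to 2.85 and 3.89 CPM (-4.13, SE 0.65, adjusted p = 5.35e-05). Among Notch pathway genes as a whole, 8 of 17 fell and 1 rose, the exception being HEY1, from 10.9 and 5.42 to 162 and 122 CPM (4.16, SE 0.88, adjusted p = 0.00107). RIPPLY1, MEOX1, FOXC2 and UNCX had at most 3 counts in each of the 4 libraries.

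Of the CDX factors, which set posterior identity and activate HOX genes, CDX1 fell from 142 and 205 to 7.26 and 8.79 CPM (log2 fold change -4.38, SE 0.36, adjusted p = 1.62e-08). CDX2 fell from 362 and 411 to 78.4 and 73.7 CPM (-2.30, SE 0.42, adjusted p = 0.000324), a level still far above the control, where 1 library had no count of CDX2. CDX4, at 65.5 and 32.2 CPM in PPS-24h and 26.4 and 24.8 CPM in PPS-LM, did not pass the test.

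Genes of the pluripotent state fell in 10 of the 16 tested and rose in 2 (median -1.81). NANOG was still present at 24 h, at 12.4 and 11.4 CPM, and had no count in PPS-LM, at least 73.9-fold lower. POU5F1 (OCT4), which is listed under several identifiers, fell from 427 and 462 to 95.3 and 95.2 CPM under the identifier with most counts (log2 fold change -2.18, SE 0.21, adjusted p = 6.43e-08). VRTN fell from 115 and 189 to 14.2 and 14.3 CPM (-3.37, SE 0.26, adjusted p = 5.94e-09), and L1TD1, an RNA-binding protein of pluripotent cells, from 546 and 493 to 65.3 and 96.5 CPM (-2.63, SE 0.22, adjusted p = 1.69e-08). Against the direction of the list, TERF1, a telomere repeat-binding protein, rose from 109 and 82.9 to 491 and 381 CPM (2.23, SE 0.21, adjusted p = 6.79e-08), below the 879 and 960 CPM of the control. SOX2 was already at 0.889 and 0.361 CPM in PPS-24h, against 331 and 279 CPM in the control. Neural and neuromesodermal genes were lower in 6 of 14 tested and higher in none, among them NKX1-2, which fell from 184 and 268 to 6.69 and 18.3 CPM (-4.12, SE 0.62, adjusted p = 2.75e-05). The neural factors SOX1, SOX21, PAX6 and SIX3 had at most 3 counts in each library. Of 12 primordial germ cell genes tested, 6 were lower and none higher, a count that fell to 3 without PPS-LM replicate 1.

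**Figure D2:**
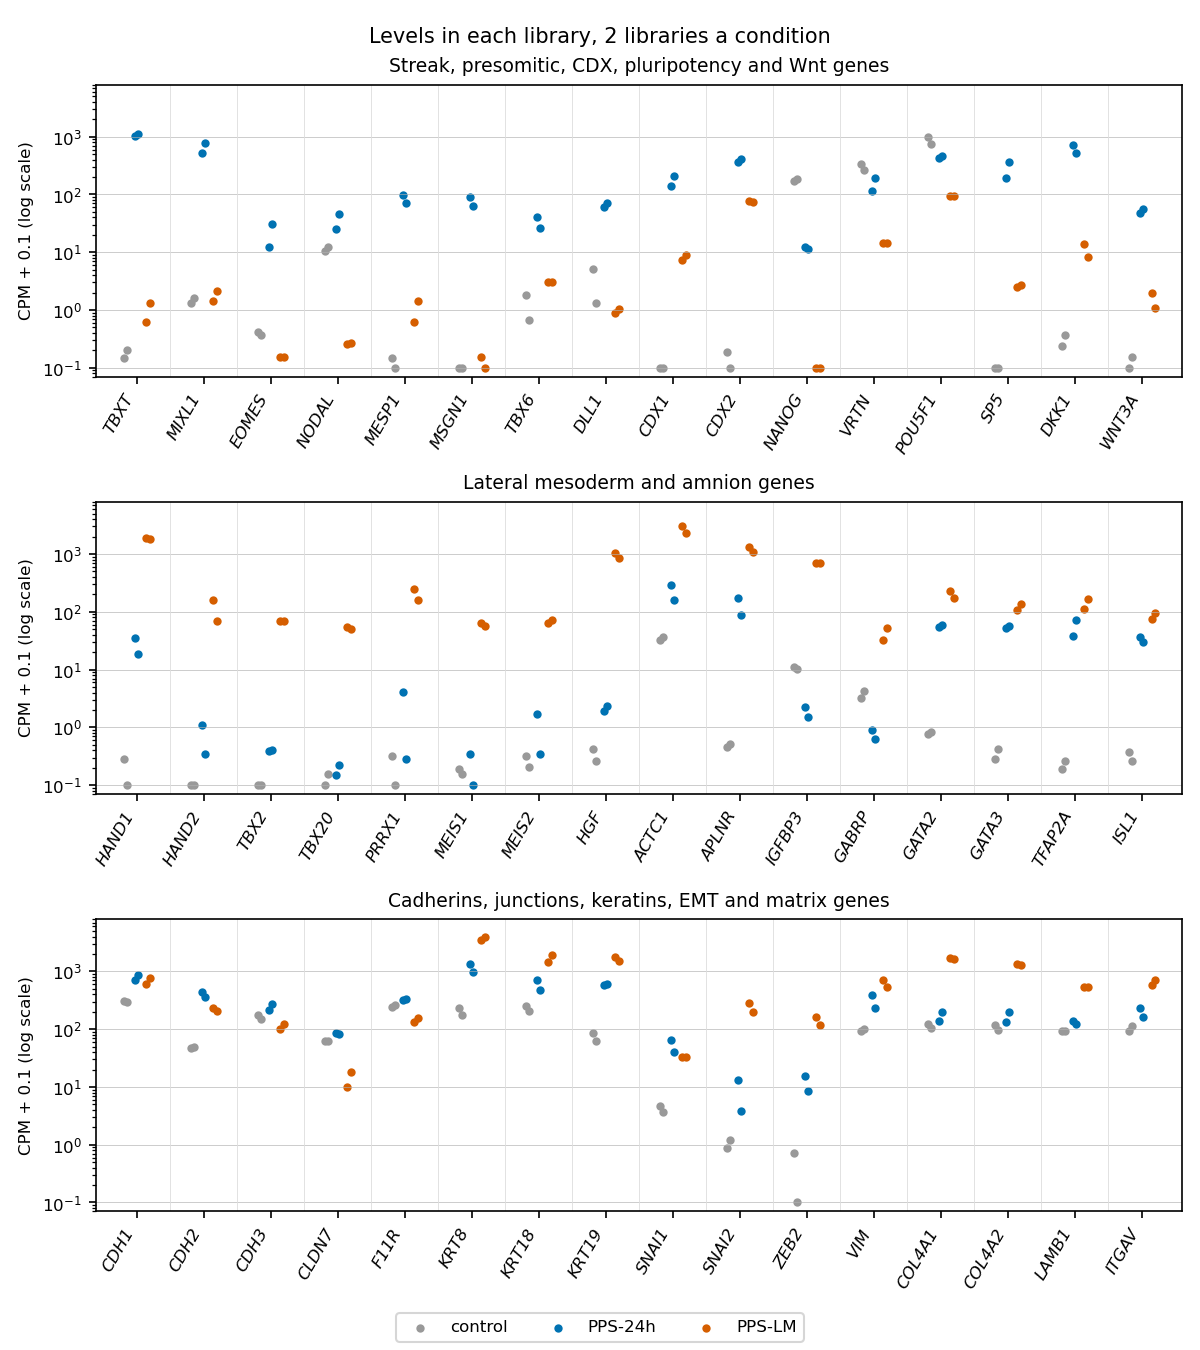
Level of 48 genes in each library of the undifferentiated control, PPS-24h and PPS-LM (2 points a condition), as CPM plus 0.1 on a log axis. Streak, presomitic and Wnt genes (top) lie lower in PPS-LM, lateral mesoderm genes (middle) lie higher, and CDH1 in the lower panel stands at 717 and 861 CPM in PPS-24h and 616 and 763 CPM in PPS-LM. DLL1 and POU5F1 are shown under their identifier with most counts.

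Wnt feedback and target genes, many of them direct targets of β-catenin with TCF/LEF factors, fell in 14 of 20 and rose in 2 (median -2.12). SP5, whose promoter is shown above, fell from 193 and 372 to 2.42 and 2.57 CPM (log2 fold change -6.77, SE 0.39, adjusted p = 1.86e-10). LGR5, a receptor for R-spondins, fell from 23.5 and 35.4 to 0.210 and 0.328 CPM (-6.70, SE 0.61, adjusted p = 4.47e-08). SP8, a zinc finger factor related to SP5, fell from 17.2 and 27.3 to 0.158 and 0.492 CPM (-6.03, SE 0.61, adjusted p = 1.91e-07). The secreted Wnt antagonist DKK1 fell from 717 and 517 to 14.02 and 8.31 CPM (-5.75, SE 0.53, adjusted p = 5.02e-08). AXIN2, a component of the β-catenin destruction complex that is named here after its values were seen, fell from 549 and 795 to 24.2 and 22.0 CPM, below the 45.7 and 39.2 CPM of the control. The 2 members that rose were TCF7L1, a TCF repressor, from 10.97 and 9.57 to 49.0 and 56.4 CPM (2.41, SE 0.25, adjusted p = 2.07e-07), and MYC, from 16.7 and 7.09 to 32.3 and 35.5 CPM (1.55, SE 0.37, adjusted p = 0.00325). The MYC call was lost without PPS-24h replicate 2 (adjusted p = 0.0842). LEF1, also chosen after the data were seen, did not pass the test at 197 and 199 CPM in PPS-24h and 223 and 212 CPM in PPS-LM.

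The Wnt ligands and receptors moved in both directions. Of 14 ligands tested, 5 fell and 2 rose, and 3 fell without PPS-LM replicate 1 or without replicate 2, while 1 rose without any single library of the 4. WNT3A, a canonical streak ligand, fell from 46.8 and 55.2 to 1.85 and 0.984 CPM (log2 fold change -5.12, SE 0.43, adjusted p = 1.28e-08). WNT5B fell from 874 and 937 to 112 and 136 CPM (-2.82, SE 0.41, adjusted p = 2.06e-05). WNT11, a ligand of cardiac mesoderm, rose from 0.742 and 0.602 to 19.2 and 17.5 CPM (4.80, SE 0.74, adjusted p = 3.85e-05). Among the 14 Frizzled receptors and secreted Frizzled-related proteins tested, 6 rose and 4 fell. FZD10 fell from 191 and 229 to 11.8 and 12.9 CPM (-4.04, SE 0.52, adjusted p = 4.56e-06), while FZD6 rose from 25.0 and 23.8 to 105 and 115 CPM (2.22, SE 0.19, adjusted p = 2e-08). SFRP1, a secreted Wnt inhibitor, rose from 12.8 and 9.22 to 93.7 and 81.8 CPM (3.03, SE 0.22, adjusted p = 3.19e-09), and its relative SFRP2 fell from 124 and 125 to 22.1 and 27.2 CPM (-2.29, SE 0.27, adjusted p = 1.61e-06).

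Nodal and activin pathway genes fell in 8 of 16 and rose in 1 (median -3.18, or -2.42 with genes at no count at their bound). The ligand NODAL fell from 24.7 and 45.9 to 0.158 and 0.164 CPM, a ratio of 213 (95% counting interval 97.7 to 582). FST (follistatin), which binds activin, fell from 453 and 429 to 34.6 and 57.2 CPM (log2 fold change -3.21, SE 0.68, adjusted p = 0.00108). INHBE, an inhibin subunit, fell from 18.3 and 5.28 to 0.473 and 0.547 CPM (-4.48, SE 0.84, adjusted p = 0.000346). The member that rose was the activin subunit INHBA, from 0.0494 and 0.120 to 1.52 and 0.984 CPM (3.87, SE 1.08, adjusted p = 0.0110), a low level throughout, and no member rose without PPS-24h replicate 1 or without PPS-LM replicate 1. The Nodal inhibitor LEFTY1, a near copy of LEFTY2, had at most 3 counts in each of the 4 libraries.

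FGF signalling genes split. Among FGF-ERK response genes 8 of 16 fell and 4 rose (median -1.26). EGR1, an immediate early factor, fell from 121 and 509 to 2.47 and 1.70 CPM (log2 fold change -7.19, SE 1.57, adjusted p = 0.00147), with its PPS-24h libraries 4-fold apart. ETV4 fell from 384 and 451 to 19.4 and 25.4 CPM (-4.17, SE 0.46, adjusted p = 5.44e-07). The FGF receptor antagonist IL17RD fell from 485 and 389 to 25.3 and 22.4 CPM (-4.15, SE 0.25, adjusted p = 2.14e-10). In the other direction, the related factor ETV1 rose from 13.2 and 15.51 to 77.8 and 75.6 CPM (2.46, SE 0.26, adjusted p = 2.39e-07), and the feedback inhibitors SPRY1 and SPRED1 rose by 2.77 and 1.71 on the log2 scale. Of the ligands and receptors, 7 of 18 fell and 3 rose. FGF4 fell from 121 and 155 to 5.42 and 5.53 CPM (-4.60, SE 0.37, adjusted p = 9.63e-09), and FGF18 from 9.52 and 15.49 to 0.158 and 0.219 CPM (-5.96, SE 0.73, adjusted p = 2.22e-06). The receptor FGFR2 rose from 10.1 and 8.20 to 162 and 131 CPM (4.05, SE 0.38, adjusted p = 5.18e-08), and the limb and heart ligand FGF10 from 3.26 and 3.01 to 34.4 and 21.7 CPM (3.20, SE 0.44, adjusted p = 1.01e-05).

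BMP4 was present on both days, and the BMP target genes moved in both directions, with more rises than falls. Of 16 tested, 7 rose, 2 fell and 7 did not pass the test (median 0.20), and each of the alternatives in processing gave the same 7 and 2 as counts. The inhibitors of DNA binding ID1, ID3 and ID4 did not pass, with ID1 at 236 and 203 CPM in PPS-24h and 194 and 202 CPM in PPS-LM. ID2, by contrast, rose from 160 and 127 to 472 and 381 CPM (log2 fold change 1.62, SE 0.26, adjusted p = 6.16e-05). SMAD7, MSX2, TBX3 and DLX5 did not pass, TBX3 for instance at 514 and 494 CPM against 519 and 547 CPM. The inhibitory SMAD6 rose from 57.4 and 70.2 to 230 and 291 CPM (2.08, SE 0.21, adjusted p = 2.16e-07), and SMAD9, a receptor-regulated SMAD of the BMP branch, from 23.3 and 22.0 to 180 and 150 CPM (2.91, SE 0.25, adjusted p = 2.26e-08). BAMBI, a decoy receptor, rose from 329 and 246 to 864 and 723 CPM (1.51, SE 0.27, adjusted p = 0.000214). KCTD12 rose from 3.46 and 2.95 to 90.1 and 71.5 CPM (4.70, SE 0.36, adjusted p = 5.17e-09). TBX2, a T-box repressor, rose from 0.296 and 0.301 to 69.2 and 68.0 CPM (7.86, SE 0.58, adjusted p = 6.52e-08). The 2 that fell were MSX1, from 712 and 783 to 53.1 and 77.1 CPM (-3.47, SE 0.39, adjusted p = 7.74e-07), and ATOH8, from 17.7 and 17.4 to 2.73 and 1.75 CPM (-2.92, SE 0.33, adjusted p = 8.47e-07). HEY1, the remaining member, is described with the Notch genes.

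Ligands and extracellular modulators of BMP showed 6 higher and 3 lower of 21. The ligand GDF6 rose from 0.889 and 0.602 to 57.2 and 49.7 CPM (log2 fold change 6.19, SE 0.91, adjusted p = 2.26e-05) and BMP4 itself from 112 and 58.1 to 306 and 287 CPM (1.84, SE 0.35, adjusted p = 0.000411). BMP7 fell from 42.4 and 63.8 to 10.9 and 16.2 CPM (-1.92, SE 0.36, adjusted p = 0.000353). Of 13 TGFβ and BMP receptors tested, 6 rose and 2 fell, the rises including TGFBR2, from 4.99 and 4.52 to 23.5 and 28.4 CPM (2.50, SE 0.30, adjusted p = 1.71e-06), and BMPR2, from 81.1 and 80.0 to 163 and 179 CPM (1.13, SE 0.23, adjusted p = 0.000637).

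Transcription factors of lateral and cardiac mesoderm rose in 12 of 20 and fell in 2 (median 2.80, or 2.45 with genes at no count at their bound). MESP1, described above with the streak genes, was 1 of the 2 that fell (log2 fold change -6.47). HAND1 (chr5:154474972-154478227), a basic helix-loop-helix factor of lateral and extra-embryonic mesoderm, had 35.0 and 18.8 CPM at 24 h and 1892 and 1826 CPM after LM medium (log2 fold change 6.15, SE 0.59, adjusted p = 8.36e-08). HAND2 rose from 0.988 and 0.241 to 158 and 69.8 CPM (7.51, SE 0.75, adjusted p = 4.73e-07), with its PPS-LM libraries more than 2-fold apart. TBX20, a cardiac T-box factor, rose from 0.0495 and 0.120 to 54.1 and 50.7 CPM, a ratio of 644 (95% counting interval 220 to 3130). PRRX1, a homeobox factor of limb and lateral mesenchyme, rose from 4.05 and 0.181 to 249 and 161 CPM (6.60, SE 0.98, adjusted p = 4.79e-05). GATA4, listed under 2 identifiers, rose under both, from 16.8 and 29.5 to 102 and 104 CPM under the identifier with most counts (2.20, SE 0.31, adjusted p = 1.82e-05). The cardiac homeobox factor NKX2-5 rose from 0.444 and 1.57 to 9.12 and 8.65 CPM (3.21, SE 0.71, adjusted p = 0.00188), and so stayed at a low level. GATA6, at 65.1 and 44.8 CPM in PPS-24h and 73.7 and 52.2 CPM in PPS-LM, did not pass the test (0.24, SE 0.30, adjusted p = 0.62). GATA4 is named after its values were seen.

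HGF, the ligand of the MET receptor, rose from 1.79 and 2.23 to 1032 and 862 CPM (log2 fold change 8.94, SE 0.76, adjusted p = 1.55e-08), against 0.316 and 0.160 CPM in the control. Of 7 apelin and chemokine genes 3 rose and 3 fell (median -0.04), and none fell without PPS-24h replicate 1 or without PPS-LM replicate 2, while 1 fell without PPS-LM replicate 1. The apelin receptor APLNR rose from 175 and 86.3 to 1349 and 1068 CPM (3.25, SE 0.40, adjusted p = 2.24e-06), and the chemokine receptor CXCR4 fell from 59.8 and 19.5 to 9.21 and 10.3 CPM (-1.98, SE 0.55, adjusted p = 0.0103). The CXCR4 call was lost without PPS-24h replicate 1 (adjusted p = 0.276), PPS-LM replicate 1 (0.0915) or PPS-LM replicate 2 (0.0568). Contractile genes rose in 6 of 19 and fell in 2, or in 1 without PPS-24h replicate 1 or without PPS-LM replicate 1. Cardiac actin ACTC1 rose from 291 and 162 to 3080 and 2281 CPM (3.61, SE 0.48, adjusted p = 6.93e-06), while the smooth muscle gene TAGLN fell from 294 and 197 to 95.1 and 84.6 CPM (-1.40, SE 0.33, adjusted p = 0.00258).

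Amnion and surface ectoderm genes rose in 9 of 18 and fell in 1 (median 1.40), and their summed level went from 462 and 481 to 1673 and 1736 CPM, against 49.5 and 42.8 CPM in the control. Without PPS-24h replicate 1, or without PPS-LM replicate 2, 5 rose. IGFBP3, an IGF-binding protein, took a large part of that rise, from 2.13 and 1.39 to 710 and 697 CPM (log2 fold change 8.67, SE 0.46, adjusted p = 8.88e-11). GABRP, a GABA receptor subunit used as an amnion marker, rose from 0.790 and 0.542 to 31.8 and 51.9 CPM (6.00, SE 0.73, adjusted p = 2.08e-06). VTCN1, another amnion marker, had 0.0494 and 0.0602 CPM in PPS-24h and 5.77 and 9.74 CPM in PPS-LM (7.05, SE 1.31, adjusted p = 0.000547). GATA2 rose from 53.5 and 59.9 to 225 and 171 CPM (1.85, SE 0.32, adjusted p = 0.000194). GATA3 rose from 51.5 and 56.5 to 107 and 136 CPM (1.22, SE 0.37, adjusted p = 0.0192), and TFAP2A from 37.4 and 72.5 to 113 and 167 CPM (1.40, SE 0.40, adjusted p = 0.0109). The call for GATA3 was lost without any of PPS-24h replicate 1 (adjusted p = 0.0964), PPS-24h replicate 2 (0.0802) or PPS-LM replicate 2 (0.142). That for TFAP2A was lost without PPS-24h replicate 1 (0.135) or PPS-LM replicate 2 (0.137). ISL1, shared by amnion and cardiac mesoderm, had 36.8 and 30.5 CPM in PPS-24h and 75.1 and 94.8 CPM in PPS-LM and did not pass the test (1.39, SE 0.57, adjusted p = 0.0846), but it passed with the identifiers of each symbol summed (adjusted p = 0.047), with the 4 libraries fitted alone (0.00459) and without the filter on low counts (1.16e-05). The tight junction gene CLDN10 fell from 48.8 and 48.3 to 6.70 and 5.07 CPM (-2.99, SE 0.43, adjusted p = 1.77e-05). The summed amnion list thus moved with the lateral list, whose summed level went from 908 and 824 to 3507 and 3204 CPM, and its part in the other changes was not tested.

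Markers of further cell types were low or mixed. Of 14 trophoblast genes, 4 passed the filter on low counts, and of these 2 rose and none fell (median 1.59). Another 7, namely CGB3, CGB8, GCM1, HSD3B1, PSG1, XAGE2 and ELF5, had at most 3 counts in each library. The summed level of the trophoblast list went from 2.87 and 2.24 to 17.4 and 12.1 CPM. Endothelial and blood genes were higher in 4 and lower in 3 of 19 tested, with 1 lower without any of PPS-24h replicate 2, PPS-LM replicate 1 or PPS-LM replicate 2. FLT1, a VEGF receptor, rose from 21.8 and 18.2 to 249 and 265 CPM (log2 fold change 3.73, SE 0.46, adjusted p = 2.35e-06). SOX7, an endothelial and mesodermal factor listed under 2 identifiers, rose from 0.564 and 0 to 41.7 and 36.6 CPM when they were summed (7.09, SE 0.95, adjusted p = 4.58e-06). The blood factor LMO2 fell from 77.0 and 41.5 to 1.58 and 1.64 CPM (-5.15, SE 0.66, adjusted p = 3.7e-06), and the defining genes TAL1, PECAM1, GATA1, ERG, HBZ and GYPB had at most 3 counts in each library. Definitive endoderm genes fell in 4 of 13 and rose in 1, and the endoderm factors FOXA2 and SOX17 were near 0 in both conditions and did not pass. FOXA2 had 0.0989 and 0.361 CPM in PPS-24h and no count in PPS-LM (adjusted p = 0.371), and SOX17 had 0.247 and 0.602 CPM against 0 and 0.0547 CPM (adjusted p = 0.546). The count of lower genes was 2 without PPS-LM replicate 1 or without replicate 2. Intermediate mesoderm genes fell in 3 of 10 and rose in none, including SALL1, from 611 and 649 to 177 and 209 CPM (-1.66, SE 0.17, adjusted p = 1.94e-07).

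The classical cadherins, which join cells to one another, divided. CDH1 (E-cadherin, chr16:68737292-68835537), the adhesion molecule of epithelia, did not pass the test, at 717 and 861 CPM in PPS-24h and 616 and 763 CPM in PPS-LM (log2 fold change -0.14, SE 0.26, adjusted p = 0.747). Both conditions lay above the 303 and 299 CPM of the control. CDH2 (N-cadherin), the cadherin of mesoderm, fell from 433 and 358 to 235 and 204 CPM (-0.80, SE 0.15, adjusted p = 0.000295), still above the 46.9 and 48.2 CPM of the control. CDH3 (P-cadherin), a neighbour of CDH1 on chromosome 16, fell from 215 and 277 to 101 and 121 CPM (-1.11, SE 0.19, adjusted p = 0.000176). Of 18 other cadherins and protocadherins, 5 rose and 4 fell, and 3 rose without PPS-LM replicate 1. PCDH8, a protocadherin of presomitic mesoderm, fell from 35.9 and 72.1 to 0.526 and 0.437 CPM (-6.74, SE 1.06, adjusted p = 6.14e-05), and PCDH19 from 308 and 260 to 20.4 and 17.2 CPM (-3.87, SE 0.28, adjusted p = 2.65e-09). CDH13 rose from 2.37 and 2.05 to 51.0 and 42.3 CPM (4.44, SE 0.55, adjusted p = 2.69e-06), and PCDH17 from 6.46 and 11.8 to 136 and 111 CPM (3.81, SE 0.47, adjusted p = 2.4e-06).

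The other epithelial genes divided. Of 24 junction genes 7 fell and 2 rose (median -0.24). The 2 that rose, PARD6B and PKP2, were named after their values were seen, and without PPS-LM replicate 2 none rose, while 1 rose without any other single library of the 4. CLDN7, a claudin of tight junctions, fell from 87.2 and 83.0 to 9.91 and 18.4 CPM (log2 fold change -2.54, SE 0.30, adjusted p = 1.16e-06), and OCLN (occludin), with its 2 identifiers summed, from 54.2 and 46.3 to 10.8 and 15.4 CPM (-1.89, SE 0.28, adjusted p = 1.51e-05). F11R, a junctional adhesion molecule, fell from 315 and 331 to 131 and 156 CPM (-1.12, SE 0.15, adjusted p = 8.43e-06). TJP1 (ZO-1), split over identifiers, did not pass, and its summed level was 239 and 251 CPM in PPS-24h and 192 and 235 CPM in PPS-LM. EPCAM did not pass either, at 246 and 227 against 289 and 343 CPM. Epithelial regulators and proteases fell in 8 of 16 and rose in 1, and 5 fell without PPS-LM replicate 1. The splicing factor ESRP1 fell from 143 and 127 to 39.0 and 56.2 CPM (-1.45, SE 0.26, adjusted p = 0.000223), and GRHL1, a Grainyhead factor, was the member that rose, from 1.58 and 2.47 to 15.96 and 25.6 CPM (3.42, SE 0.54, adjusted p = 5.17e-05). EPCAM and ESRP1 were named after their values were seen. Of 7 simple epithelial keratins 3 rose and 1 fell. KRT8 rose from 1346 and 956 to 3548 and 3865 CPM (1.74, SE 0.31, adjusted p = 0.000176), its partner KRT18 from 695 and 472 to 1432 and 1885 CPM (1.56, SE 0.33, adjusted p = 0.00107), and KRT19 from 582 and 605 to 1806 and 1492 CPM (1.52, SE 0.30, adjusted p = 0.000571). KRT8 and KRT18 overlap in their annotated ends.

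Factors and effectors of epithelial-mesenchymal transition (EMT) rose in 14 of 24 and fell in 3 (median 1.14), and 9 rose without PPS-24h replicate 2 or without PPS-LM replicate 1. SNAI2, a zinc finger repressor of epithelial genes, rose from 13.01 and 3.68 to 284 and 196 CPM (log2 fold change 4.87, SE 0.52, adjusted p = 3.91e-07), and ZEB2 from 15.3 and 8.26 to 164 and 120 CPM (3.63, SE 0.42, adjusted p = 8.69e-07). SNAI1 fell from 64.9 and 40.3 to 32.2 and 32.5 CPM (-0.65, SE 0.24, adjusted p = 0.0467). The SNAI1 call was lost without PPS-24h replicate 1 (adjusted p = 0.52), without PPS-LM replicate 1 (0.187) and without PPS-LM replicate 2 (0.139), and with the 4 libraries fitted alone (0.125). The intermediate filament gene VIM rose from 383 and 232 to 695 and 533 CPM (1.04, SE 0.32, adjusted p = 0.0196), and its call was lost without PPS-24h replicate 2 (0.233) or PPS-LM replicate 1 (0.153). THY1, a surface protein of fibroblasts, fell from 120 and 87.2 to 40.1 and 27.6 CPM (-1.57, SE 0.24, adjusted p = 3.37e-05).

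Matrix genes moved in both directions. Of 22 collagens 10 rose and 2 fell (median 0.68), and 1 fell without PPS-24h replicate 2 or without PPS-LM replicate 2. The basement membrane chains COL4A1 and COL4A2, which lie head to head on chromosome 13, rose together, COL4A1 from 140 and 201 to 1717 and 1605 CPM (log2 fold change 3.33, SE 0.26, adjusted p = 5.7e-09) and COL4A2 from 133 and 200 to 1356 and 1313 CPM (3.05, SE 0.25, adjusted p = 1.02e-08). COL11A1, a fibrillar chain, rose from 42.0 and 47.4 to 446 and 565 CPM (3.55, SE 0.22, adjusted p = 3.43e-10). Integrins and laminins rose in 11 and fell in 6 of 24. Without PPS-24h replicate 2 the higher count was 5, and without PPS-LM replicate 1 the counts were 6 and 3. The laminin chain LAMB1 rose from 140 and 124 to 531 and 528 CPM (2.05, SE 0.18, adjusted p = 1.73e-08) and the integrin ITGAV from 235 and 163 to 587 and 704 CPM (1.75, SE 0.24, adjusted p = 9.32e-06). ITGA6, an epithelial laminin receptor, fell from 45.9 and 59.96 to 16.6 and 25.1 CPM (-1.29, SE 0.25, adjusted p = 0.00051). Of 15 hyaluronan and proteoglycan genes 4 fell and 1 rose, with the hyaluronan synthase HAS3 falling from 91.3 and 113 to 1.26 and 1.91 CPM (-5.95, SE 0.66, adjusted p = 5.3e-07) and the hyaluronan receptor CD44 from 77.9 and 48.9 to 4.94 and 3.94 CPM (-3.79, SE 0.44, adjusted p = 9.76e-07).

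HOX genes, whose order along each cluster follows the body axis, moved in opposite directions at the ends of the clusters. Over the 37 tested, 7 rose and 6 fell. Paralogues 1 to 4, at the 3′ end, held all 6 of the falling genes among 12 tested, and paralogues 5 to 13 held all 7 of the rising genes among 25, a split chosen after the values were seen and given without a test. HOXB1 fell from 26.5 and 16.7 to 1.31 and 2.13 CPM (log2 fold change -3.60, SE 0.53, adjusted p = 2.78e-05) and HOXD1 from 19.6 and 25.6 to 0.210 and 0.328 CPM (-6.32, SE 0.66, adjusted p = 1.13e-06). HOXA3 fell from 52.7 and 64.5 to 10.7 and 9.71 CPM (-2.47, SE 0.55, adjusted p = 0.0028). HOXA13 rose from 8.14 and 5.42 to 136 and 103 CPM (4.18, SE 0.59, adjusted p = 2.24e-05) and HOXC8 from 2.87 and 2.54 to 76.6 and 91.9 CPM (5.01, SE 0.70, adjusted p = 7.74e-05). HOXC6, whose annotated span encloses HOXC8, rose from 15.47 and 9.85 to 60.3 and 72.8 CPM (2.44, SE 0.61, adjusted p = 0.00603). The counts in this group moved with the fit. Among HOXA and HOXB genes 4 of 21 rose with all libraries, 1 without any single library of the 4, 11 with the 4 libraries alone and 12 without the filter on low counts, while 3 to 5 fell throughout. Calls lost when a library was left out included those of HOXA9, HOXA10, HOXA11 and HOXB4, each without any of the 4 libraries, and HOXD13 and HOXC6. HOXD13 passed only without PPS-24h replicate 1, and the HOXC6 call was lost without PPS-24h replicate 2 (adjusted p = 0.0746).

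**Figure D3:**
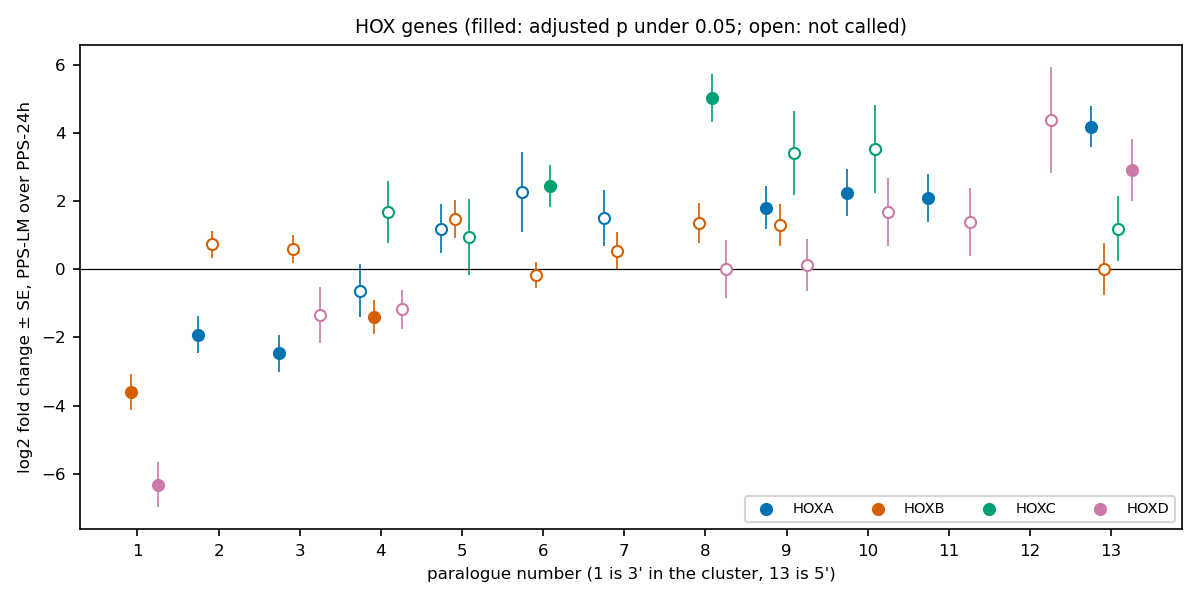
Log2 fold change of each HOX gene tested, PPS-LM over PPS-24h, with its standard error, by paralogue number (1 is the 3′ end of a cluster), with 1 gene not shown. Filled points passed the test. All filled points below 0 are at paralogues 1 to 4, and all 7 above 0 are at 6 to 13.

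The HOX cofactors of the MEIS and PBX families rose in 6 of 9 and fell in 1. MEIS1 went from 0.247 and 0 to 63.3 and 56.3 CPM (log2 fold change 8.78, SE 0.71, adjusted p = 8.82e-09) and MEIS2 from 1.58 and 0.241 to 64.6 and 71.2 CPM (6.20, SE 0.74, adjusted p = 1.5e-06). Retinoic acid genes, which control MEIS and HOX genes in the embryo, rose in 3 and fell in 6 of 16, and 3 fell without PPS-24h replicate 1. CYP26A1, which breaks down retinoic acid, rose from 0.198 and 0.241 to 11.6 and 17.7 CPM (6.08, SE 0.90, adjusted p = 2.3e-05).

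Axon and vessel guidance genes rose in 14 and fell in 7 of 29, although 3 were lower without PPS-24h replicate 2 or without PPS-LM replicate 1. The ephrin receptor EPHA7 rose from 2.43 and 5.90 to 222 and 118 CPM (log2 fold change 5.41, SE 0.47, adjusted p = 1.89e-08) and the secreted ligand SLIT3 from 1.04 and 1.14 to 29.2 and 26.3 CPM (4.71, SE 0.47, adjusted p = 1.23e-07). The related ligand SLIT2 fell from 94.3 and 90.0 to 8.27 and 8.92 CPM (-3.38, SE 0.32, adjusted p = 6.69e-08), and NTN1 (netrin 1) from 11.3 and 17.1 to 0.263 and 0.219 CPM (-5.79, SE 0.72, adjusted p = 2.54e-06). Imprinted growth genes rose in 6 of 14 and fell in 2, or in 1 without any single library of the 4. The growth factor IGF2 rose from 1.43 and 2.01 to 148 and 139 CPM (6.45, SE 0.50, adjusted p = 5.59e-09), and CDKN1C, a cell cycle inhibitor listed under 2 identifiers, rose from 17.6 and 17.1 to 94.6 and 77.8 CPM when they were summed (2.36, SE 0.25, adjusted p = 1.27e-07). Transporters of surface epithelia rose in 6 of 12 and fell in 2, or in 1 without PPS-LM replicate 1. The efflux pump ABCG2 rose from 51.4 and 15.8 to 322 and 398 CPM (3.46, SE 0.47, adjusted p = 8.61e-06) and the taurine transporter SLC6A6 from 227 and 262 to 863 and 1393 CPM (2.26, SE 0.25, adjusted p = 5.42e-07).

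Of 28 mitotic and S phase genes 12 fell and 1 rose (median -0.36), and 4 fell with the 4 libraries fitted alone. The replication licensing factor MCM5 fell from 245 and 329 to 128 and 121 CPM (log2 fold change -1.15, SE 0.15, adjusted p = 4.7e-06), and CDK1 was the member that rose, from 149 and 95.4 to 300 and 235 CPM (1.17, SE 0.22, adjusted p = 0.000335). Of 13 cell cycle inhibitors and D cyclins 3 rose and 4 fell, with CCND2 falling from 230 and 175 to 46.0 and 48.5 CPM (-2.05, SE 0.25, adjusted p = 1.94e-06). Glycolysis genes rose in 3 and fell in 5 of 30, or in 3 without PPS-LM replicate 2. The glucose transporter SLC2A3 fell from 2711 and 2312 to 606 and 689 CPM (-1.91, SE 0.28, adjusted p = 2.17e-05), and the phosphofructokinase PFKP rose from 82.2 and 90.2 to 367 and 363 CPM (2.13, SE 0.23, adjusted p = 4.15e-07). Over all genes tested 12.1% rose and 12.9% fell. The glycolysis counts, and the sterol counts that follow, lie near or below these shares. Sterol and fatty acid synthesis genes were higher in 2 and lower in 3 of 31, with 1 higher without any of PPS-24h replicate 2, PPS-LM replicate 1 or PPS-LM replicate 2. Of 23 p53 and stress genes 5 fell and 1 rose, and 3 fell without PPS-LM replicate 1. ASNS (asparagine synthetase) fell from 464 and 283 to 49.7 and 48.6 CPM (-2.88, SE 0.40, adjusted p = 1.01e-05), and ATF3 rose from 28.8 and 15.2 to 118 and 86.6 CPM (2.26, SE 0.34, adjusted p = 2.8e-05). Of 11 DNA methylation enzymes 4 were lower and 1 higher, but none was lower without PPS-24h replicate 2 or without PPS-LM replicate 1, and 1 without PPS-LM replicate 2.

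The same medium was next compared between cells that had and had not received activin on day 1. The change from MPS-24h to MPS-LM shares no library with the change from PPS-24h to PPS-LM. Across the 17895 genes the log2 fold changes of the pair of protocols had a Pearson r of 0.614 and a Spearman rho of 0.643, given as a description because genes are not independent replicates. The MPS comparison called 5608 genes, and 3204 were called in the same direction in both protocols, 71.7% of the PPS calls and 57.1% of the MPS calls, while 27 were called in opposite directions. The difference between the changes was tested directly as an interaction, which called 430 genes (2.40%), 308 with a change higher in PPS (1.72%) and 122 with a change lower in PPS (0.682%). That count depended on single libraries, and it was 210 without MPS-24h replicate 1, 192 without MPS-LM replicate 1, 211 without PPS-24h replicate 2 and 212 without PPS-LM replicate 2. The plot of the change from each day 1 treatment shows these genes away from the line of equality.

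Epithelial genes were among those that differed. Of 24 junction genes 7 had a higher change in PPS and none a lower one (CDH1, CDH3, EPCAM, CLDN6, CLDN7, CRB3 and PATJ), and of 16 epithelial regulators 6 had a higher change (ESRP1, GRHL1, ST14, SPINT1, SPINT2 and RAB25). In MPS cells CDH1 fell from 264 and 362 CPM to 46.3 and 67.4 CPM, whereas in PPS cells it did not pass the test, and the difference between the changes was 2.32 (log2, SE 0.37, adjusted p = 0.00103). EPCAM in MPS went from 133 and 177 to 36.3 and 53.3 CPM, with a difference of 2.26 (SE 0.37, adjusted p = 0.00137). ESRP1 in MPS went from 76.7 and 106 to 3.23 and 4.62 CPM, with a difference of 3.09 (SE 0.39, adjusted p = 8.45e-05). Of 24 EMT factors and effectors 4 also had a higher change in PPS, SNAI1, CDH2 and ZEB2 among them, and none a lower one. The ZEB2 difference (2.02, adjusted p = 0.0467) was not called with the compared libraries fitted alone (adjusted p = 0.0912). Most fits with a library left out did not call it either. SNAI1 in MPS fell from 134 and 112 to 14.9 and 17.4 CPM, more than in PPS, with a difference of 2.28 (SE 0.34, adjusted p = 0.000475). The differences for CDH1, EPCAM, ESRP1 and SNAI1 passed the test in every alternative. CDH2 in MPS fell from 578 and 526 to 137 and 188 CPM, a difference of 0.96 (SE 0.21, adjusted p = 0.0123), and CDH3 from 136 and 143 to 35.2 and 27.5 CPM, a difference of 1.07 (SE 0.27, adjusted p = 0.0402). The CDH2 difference was lost without MPS-24h replicate 1 (adjusted p = 0.0918), MPS-LM replicate 1 (0.119), PPS-24h replicate 2 (0.104) or PPS-LM replicate 1 (0.0666), and with the compared libraries fitted alone (0.202). The CDH3 difference was lost without any of the 8 libraries except PPS-24h replicate 2 and PPS-LM replicate 1, with adjusted p from 0.0789 to 0.222. The CLDN7 difference was lost without MPS-24h replicate 2 (adjusted p = 0.0711), MPS-LM replicate 1 (0.104), PPS-24h replicate 2 (0.0729) or PPS-LM replicate 2 (0.173), and with the compared libraries fitted alone (0.0907). The ST14 difference was lost without MPS-LM replicate 1 (0.0518), MPS-LM replicate 2 (0.0601) or PPS-LM replicate 2 (0.0802) and with the compared libraries alone (0.0614), and that of GRHL1 without MPS-24h replicate 2 (0.151) and with the compared libraries alone (0.122).

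Genes outside the epithelial lists differed as well. Of the 18 genes of the amnion list, 4 had a higher change in PPS and 2 a lower one. VTCN1 was among the higher ones (7.60, adjusted p = 0.0279). Its difference was not called with the compared libraries fitted alone (adjusted p = 0.0583), nor in most fits with a library left out. The lower ones were GATA2 (-2.47, adjusted p = 0.00368) and CLDN10 (-2.31, adjusted p = 0.0363). Of the amnion list, IGFBP3 in MPS rose from 8.85 and 12.6 to only 27.2 and 26.3 CPM, so that the change in PPS was higher by 7.36 (log2, SE 0.54, adjusted p = 8.52e-08). GABRP in MPS went from 2.35 and 3.46 to 0.931 and 0.664 CPM, against the rise in PPS, a difference of 7.88 (SE 0.96, adjusted p = 6.5e-05). GATM, which makes the precursor of creatine, fell in MPS from 18.0 and 17.1 to 0.756 and 3.46 CPM and rose in PPS from 9.74 and 10.2 to 109 and 96.5 CPM, a difference of 6.42 (SE 0.64, adjusted p = 6.31e-06). NTRK2, a neurotrophin receptor, differed by 7.39 (SE 1.47, adjusted p = 0.00629), with a loss of the call without MPS-LM replicate 1 (0.0664). MEIS1 in MPS rose from 1.13 and 0.196 to 6.48 and 8.92 CPM, a difference of 5.30 (SE 0.91, adjusted p = 0.00206). The MEIS1 difference was lost without MPS-24h replicate 1 (adjusted p = 0.248) and with the compared libraries fitted alone (0.0707). TBX20 in MPS rose from 4.90 and 4.18 to 37.3 and 61.6 CPM, near its level in PPS-LM, and the difference of 5.82 (SE 1.08, adjusted p = 0.00402) came with the lower start in PPS. WNT5A, named after its values were seen, fell in MPS from 908 and 749 to 158 and 169 CPM and did not pass in PPS, with 910 and 577 against 706 and 732 CPM, a difference of 2.36 (SE 0.38, adjusted p = 0.00104). In the other direction, GATA5, a cardiac GATA factor, rose in MPS from 1.17 and 1.77 to 56.3 and 53.8 CPM and had 9.97 and 16.8 CPM in PPS-24h and 27.6 and 24.0 CPM in PPS-LM, a difference of -4.22 (SE 0.70, adjusted p = 0.00135). SMAD9 in MPS rose from 5.08 and 5.41 to 111 and 173 CPM, a difference of -1.85 (SE 0.35, adjusted p = 0.00374).

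**Figure D4:**
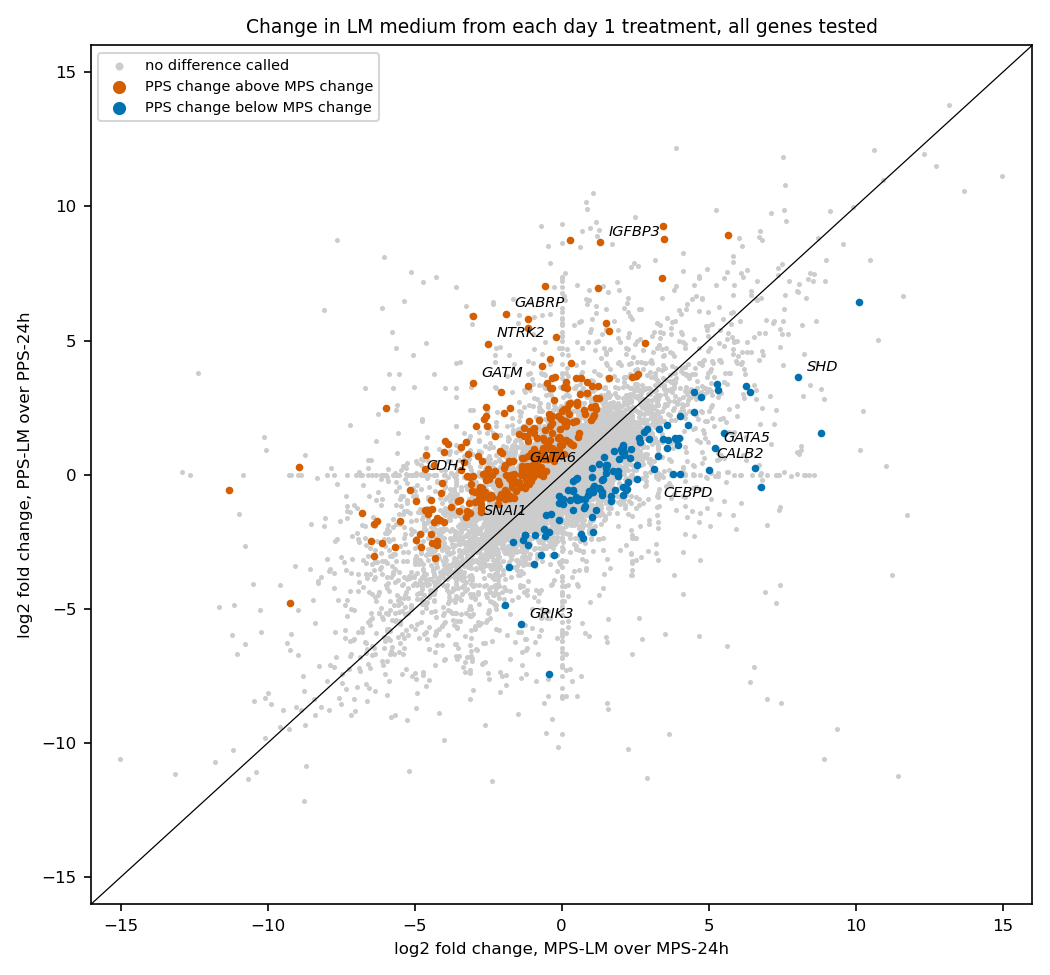
Log2 fold change of each of the 17895 genes in LM medium from PPS (vertical axis) and from MPS (horizontal axis), with the line of equality. Colours mark the 308 genes with a change higher in PPS and the 122 with a change lower in PPS, and 12 of them are named, among them IGFBP3, GABRP and CDH1 above the line and GATA5 below it.

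Against PPS cells in paraxial mesoderm medium at the same 48 h, PPS-LM had 2156 genes higher (12.0%) and 1917 lower (10.7%), in all 4073 of 17895 (22.8%). Without PPS-PM replicate 2 the count was 2693. The methods give the PM factors named above. A figure legend of the study lists CHIR99021 as well, and the study's main text describes Wnt activation on day 2 of this protocol. The labels list no Wnt agonist in PM medium. If it was present, its effect cannot be told apart from those of the other factors. BMP target genes, with the BMP receptor inhibitor LDN in PM medium, were higher in LM medium in 14 of 16 and lower in 1 (median 3.46). ID1 had 53.6 and 30.7 CPM in PM medium, against 194 and 202 CPM in LM medium (log2 difference 2.31, SE 0.48, adjusted p = 0.000932), and SMAD7 had 7.71 and 8.61 CPM, against 93.2 and 80.5 CPM (3.49, SE 0.22, adjusted p = 1.76e-10). HAND1 had 2.38 and 1.05 CPM in PM medium (10.15, SE 0.72, adjusted p = 1.03e-09), and lateral factors as a list were higher in LM medium in 15 of 20 and lower in 1. RSPO2, an R-spondin ligand of LGR receptors, had 197 and 90.8 CPM in PPS-LM and no count in PM medium, at least 1060-fold higher. HGF had 0.389 and 0 CPM in PM medium (12.22, SE 0.92, adjusted p = 2.46e-09), and TBX20 and SOWAHA had no count there, at least 385-fold and 186-fold higher in PPS-LM. Presomitic genes lay the other way, with 7 of 14 lower in LM medium and 1 higher. TBX6 had 183 and 195 CPM in PM medium (-5.94, SE 0.30, adjusted p = 1.85e-11), and MSGN1 97 and 80.7 CPM, a ratio of 3330 (95% counting interval 597 to 131000). EDAR reached 99.3 and 197 CPM in PM medium, and the inner root sheath keratins KRT71 and KRT74 reached 58.3 and 111 and 19.6 and 33.96 CPM, with no count of either keratin in PPS-LM. KRT71 and KRT74 have close paralogues, and DESeq2 did not call KRT71 (adjusted p = 0.294).

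Cadherins and junction genes also differed between the media. CDH1 had 99.5 and 110 CPM in PM medium and was higher in LM medium (log2 difference 2.80, SE 0.27, adjusted p = 8.61e-08), while CDH2 had 487 and 475 CPM there and was lower in LM medium (-1.06, SE 0.15, adjusted p = 1.22e-05). SNAI1 had 77.0 and 97.5 CPM in PM medium (-1.36, SE 0.24, adjusted p = 0.000172). Junction genes were higher in LM medium in 11 of 24 and lower in 1. The simple epithelial keratins were higher in LM medium in 4 of 7 and lower in none.

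Against endoderm medium at 48 h, PPS-LM had 1626 genes higher (9.09%) and 1777 lower (9.93%), in all 3403 of 17895 (19.0%). The count was 2250 without PPS-DE(b) replicate 1, 2126 without PPS-DE(b) replicate 2 and 2180 without PPS-LM replicate 2. Endoderm medium also held LDN, and BMP target genes were higher in LM medium in 14 of 16 and lower in none (median 3.15), with ID1 at 16.9 and 10.6 CPM in endoderm medium (log2 difference 3.85, SE 0.52, adjusted p = 8.24e-06). It held activin in place of A8301, and Nodal and activin pathway genes were lower in LM medium in 11 of 16. CER1, a Nodal, BMP and Wnt antagonist of endoderm, had 3329 and 3856 CPM in endoderm medium and no count in PPS-LM, at least 22300-fold lower. LEFTY2 had 703 and 546 CPM in endoderm medium and no count in PPS-LM, at least 3880-fold lower, though LEFTY1 and LEFTY2 are near copies whose counts could be shared. EOMES had 368 and 413 CPM in endoderm medium, a ratio of 7240 (95% counting interval 2000 to 59800), and SOX17 had 113 and 224 CPM, a ratio of 6040 (1080 to 239000). GATA6 had 467 and 563 CPM in endoderm medium and was lower in LM medium (-3.03, SE 0.32, adjusted p = 2.46e-07). HAND1 had 100.0 and 69.3 CPM in endoderm medium (4.46, SE 0.54, adjusted p = 2.26e-06), between its PPS-24h and PPS-LM levels. RSPO2 had no count in endoderm medium, at least 883-fold higher in PPS-LM, and the collagenase MMP13 was at least 110-fold higher, a call DESeq2 did not make (adjusted p = 0.431). CDH1 had 105 and 94.8 CPM in endoderm medium (2.80, SE 0.27, adjusted p = 1.05e-07) and CDH2 669 and 633 CPM (-1.57, SE 0.15, adjusted p = 8.1e-08). The comparisons with PPS-24h, PPS-PM and PPS-DE(b) share the PPS-LM libraries, so their calls are not independent.

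**Figure D5:**
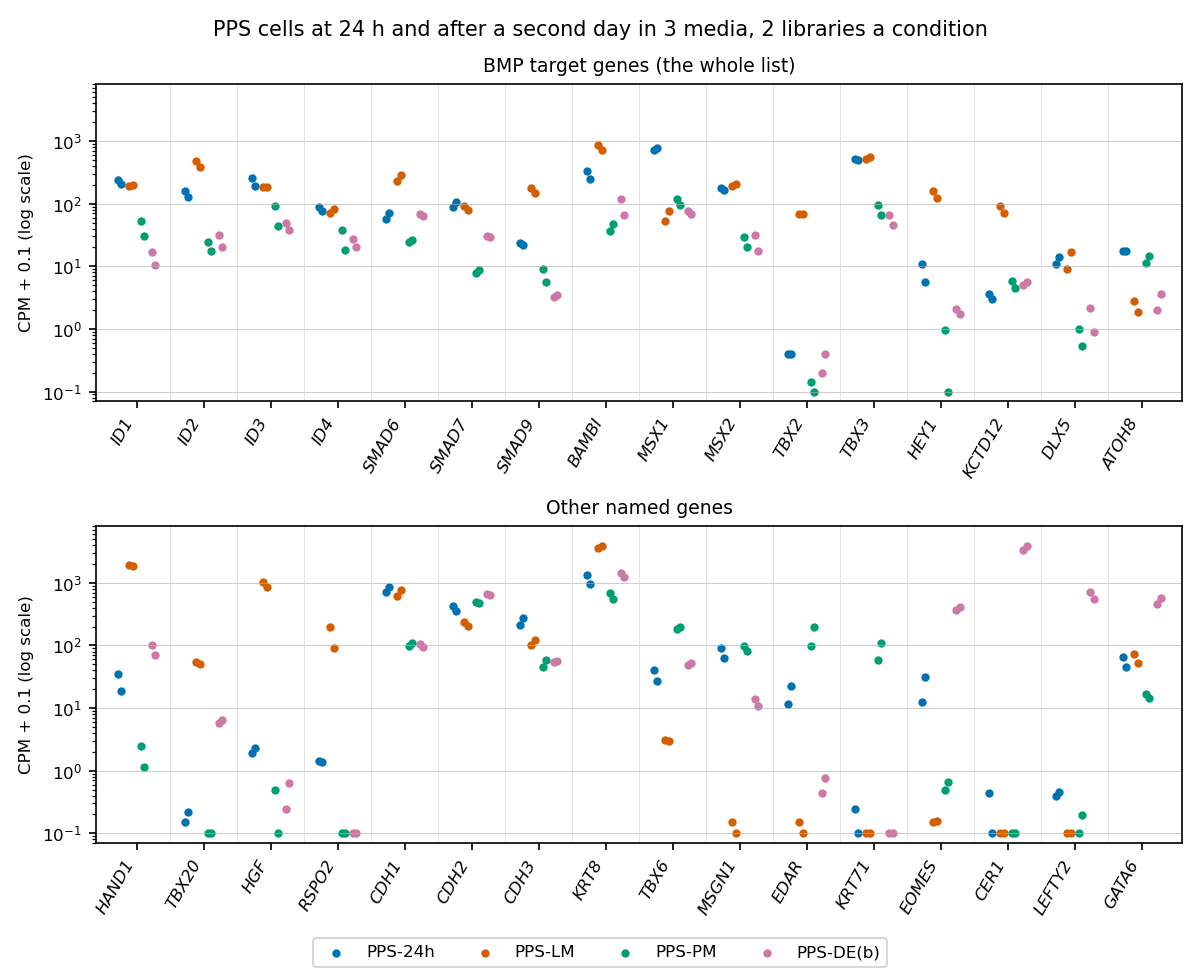
Level of the 16 BMP target genes (top) and 16 other named genes (bottom) in PPS cells at 24 h and after a second day in LM, PM or endoderm (DE(b)) medium, 2 libraries a condition, as CPM plus 0.1 on a log axis. ID1 lies at 194 and 202 CPM in LM medium, 53.6 and 30.7 CPM in PM medium and 16.9 and 10.6 CPM in DE(b) medium.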

How the data were processed

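RNA of ESI017 cells in 17 conditions, 2 libraries each, was measured by stranded, paired-end poly(A) RNA-seq. The deposited values are estimated counts per gene: per the labels, the authors quantified reads against hg38 with Salmon 1.10.2 and bias correction and summed transcripts to genes in R 4.4.2, and the annotation release is not given in the sources used here. Whether the replicates came from separate differentiations is known only from their label, so p-values measure the spread between these libraries.

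Estimated counts were rounded to whole numbers. Of 37951 identifiers, matched to symbols and GRCh38 positions in GENCODE 44, 17895 passed filterByExpr. All 34 libraries, of 15522780 to 23439799 counts, were fitted together with edgeR 4.0.16 (R 4.3.3, TMM scaling, quasi-likelihood test) without a replicate term, and genes with a Benjamini-Hochberg adjusted p under 0.05 were called. SE is the log2 fold change divided by the square root of F. Comparisons were PPS-LM against PPS-24h, PPS-PM and PPS-DE(b), and the interaction with the MPS libraries. Scripts were tested on simulated counts. Where the low group had no count, a fold is given against 3 counts per library. Ratios of summed counts have exact 95% intervals, which, like the floors, cover counting error only. Of the symbols, 1034 are listed under several identifiers, and summing them was an alternative chosen after seeing the data. Other alternatives were RLE scaling, no filter, the compared libraries alone, a replicate block, DESeq2 1.42.0, a fold change minimum and leaving out each library.

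The members and lists were chosen with earlier results of these data known. Named were the study's genes, the 15 largest rises and falls, up to 4 called members of each list in each direction, and the 5 largest differences in each direction in the other comparisons, with a minimum of 10 CPM except for the study's genes. The largest rises and falls were taken only from called genes with both PPS-LM libraries on the same side of both PPS-24h libraries. Named after their values were seen were AXIN2, LEF1, CDX4, EVX1, GATA4, INHBA, EPCAM, ESRP1, CLDN6, CRB3, PATJ, RAB25, SPINT1, SPINT2, VTCN1, WNT5A, SOX2, the remaining BMP targets and members at the floor. Some genes with calls in these lists are counted but not reported here.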

Additional observations from a re-analysis of the deposited data

Results flagged for a closer look

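Results here were flagged because the change in LM medium differed between PPS and MPS cells by the interaction test of edgeR. Groups of 2 libraries are too small for a test of single outlying libraries. The difference was called for 430 of 17895 genes (2.40%). Among the genes named, the change was higher in PPS for GABRP (7.88 on the log2 scale), NTRK2 (7.39), IGFBP3 (7.36), GATM (6.42), CDH1 (2.32), SNAI1 (2.28), GATA6 (1.60), CDH3 (1.07) and CDH2 (0.96). It was higher by 10.74 for LHX1, a nephric and endodermal factor, under 1 of its 2 identifiers, and with the identifiers summed the difference was 4.51 (SE 0.92, adjusted p = 0.00648). Summed LHX1 stood at 25.1 and 9.62 CPM in MPS-24h and 0.465 and 0.617 CPM in MPS-LM, against 2.57 and 1.93 CPM in PPS-24h and 1.38 and 1.80 CPM in PPS-LM.

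The change was lower in PPS for CALB2 (-4.84), SHD (-4.40), GATA5 (-4.22), GRIK3 (-4.17) and CEBPD (-4.00). In MPS cells the signalling adaptor SHD went from 0.217 and 0.147 to 45.6 and 56.0 CPM, and the transcription factor CEBPD from 1.53 and 1.28 to 23.9 and 21.9 CPM. CALB2, a calcium-binding protein, went from 0.0868 and 0.638 to 13.5 and 9.79 CPM in MPS cells. The glutamate receptor gene GRIK3 went from 3.47 and 5.21 to 1.92 and 1.42 CPM in MPS cells, and fell further in PPS cells. The CALB2 difference was lost without MPS-24h replicate 1 (adjusted p = 0.153), MPS-LM replicate 1 (0.102), PPS-24h replicate 2 (0.306) or PPS-LM replicate 1 (0.134), and with the compared libraries fitted alone (0.128). The GATA6 difference (adjusted p = 0.0432) was lost without any single library of the 8 except PPS-24h replicate 1, with adjusted p from 0.0537 to 0.25, and with the compared libraries fitted alone (0.0703). The SHD difference was lost without MPS-24h replicate 1 (adjusted p = 0.0560) or replicate 2 (0.0533).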

How the results depend on the processing

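Against PPS-24h, 4459 genes were called with RLE scaling, 4424 without a filter, 2988 with the compared libraries alone, 4845 with DESeq2 and 4601 with identifiers summed. With a log2 fold change of at least 1, 2790 genes were called against PPS-24h, 2668 against PPS-PM and 2221 against PPS-DE(b). The interaction gave 1025 genes without a filter, 731 with DESeq2 and 170 with the compared libraries alone. Leaving out 1 library gave 2761 to 3937 genes against PPS-24h, 192 to 497 for the interaction, 2693 to 3609 against PPS-PM and 2126 to 2270 against PPS-DE(b). The cause of these shifts was not tested.

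The labels name no shared batch or day for a replicate number. The correlation of deviations of same-numbered libraries was over 0.1 in 87 of 136 pairs of conditions, from -0.172 to 0.531 (median 0.143), and was 0.213 for PPS-24h and PPS-LM. The replicate number was left out of the test reported because the correlation was not over 0.1 in every pair. That rule cannot exclude an effect shared by libraries of the same replicate number. With the replicate number as a block, the calls were 5238 against PPS-24h, 633 for the interaction, 4829 against PPS-PM and 4046 against PPS-DE(b).

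Some genes that did not pass the test against PPS-24h changed sign when a library was left out. The log2 fold change of GATA6 ran from -0.010, without PPS-24h replicate 2 or PPS-LM replicate 1, to 0.551. That of CDH1 ran from -0.327 to 0.018, without PPS-LM replicate 1, and that of TJP1 from -0.300 to 0.057, with 0.044 and 0.057 without PPS-24h replicate 1 or PPS-LM replicate 1. Without PPS-24h replicate 1 or PPS-LM replicate 2, CALB2 was at -0.427 and -0.809 in a range up to 1.080, and CEBPD at -0.286 and -0.415 in a range up to 0.386.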
